A study of Homo sapiens with 24 samples.

Results

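The ribosome biogenesis factors are the proteins that make a ribosome without being part of the finished particle, and 45 genes for such factors were chosen by name from knowledge of the pathway, with ribosomal proteins left out. A gene was measured where the platform annotation pairs a probe set with its symbol alone, which held for 41 of the 45 among the 18374 genes with such a probe set. NOP56 has a probe set shared with SNORD56, and DDX18, GNL3 and EBNA1BP2 have no single-symbol probe set here, so these 4 were not analysed. All arrays hold T-47D cells, a human breast cancer line of the luminal type with estrogen receptor, starved of serum before treatment. The study asked how heregulin (HRG), a growth factor that binds ErbB receptors, changes gene expression, and which of its effects pass through P-Rex1, an activator of the small GTPase Rac1. The 8 groups of 3 biological replicates were untransfected parental cells, cells that received a non-target duplex (NTC), and cells that received 1 of 2 duplexes against P-Rex1 (P-Rex1 RNAi #1 or #2), each given HRG at 20 ng/ml or PBS (vehicle) for 6 h. Silencing was transient and left part of the PREX1 message in place, and all groups came from a single cell line.

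Ribosome production starts in the nucleolus, where RNA polymerase I transcribes the precursor of the large ribosomal RNAs. Small nucleolar RNPs then guide methylation (box C/D) and pseudouridylation (H/ACA) of the precursor, and assembly factors fold, cut and export the small and large subunits. Growth factors and the transcription factor MYC are known regulators of this pathway, and its output limits how fast tumor cells can grow.

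The deposited values are log2 expression values from Affymetrix Human Gene 1.0 ST arrays, normalized by the authors, and they measure RNA of the factors' genes rather than ribosomal RNA or protein. Differences are log2 (HRG minus vehicle unless stated), each with its standard error (SE), and a gene passed at an adjusted p under 0.05 in a limma fit across 21042 probe sets. PREX1, the target of the duplexes, read 10.63, 10.59 and 10.59 in parental vehicle arrays and 10.52, 10.36 and 10.38 in NTC vehicle arrays. With vehicle it read 9.09, 8.91 and 8.98 under duplex #1 and 9.0, 8.97 and 9.03 under duplex #2, so every silenced array was below every control array. HRG itself lowered PREX1, with differences of -1.05 in parental, -0.97 in NTC, -0.46 with #1 and -0.27 with #2. All 12 luminal markers tested lay above the array median in all 24 arrays, while all 5 leukocyte and all 5 endothelial markers lay below it in all of them. Among 7 fibroblast markers, COL1A1 was above the median in all arrays and 5 were below it. On the second principal component the 4 lowest arrays were replicate 3 of parental vehicle, of NTC with HRG and of #2 with HRG, and replicate 2 of #1 with vehicle. The #2 HRG arrays were spread over that component (11.7, -2.4 and -11.3), with replicate 1 farther from its neighbour than replicate 3. Results that change without these arrays are given with that value. Of the 41 members, 40 lay above the array median in every array. NPM1 lay below it in every array.

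HRG raised most of the ribosome biogenesis factors in each of the 4 kinds of cells, usually by less than 1.5-fold. In parental cells 30 of the 41 members passed higher and 0 lower, against 13.5% of all probe sets higher and 17.3% lower. In NTC cells 28 passed higher and 1 lower (all probe sets: 13.6% and 17.6%). With P-Rex1 RNAi #1 the counts were 35 higher and 0 lower (14.9% and 12.4%), and with #2 they were 30 higher and 0 lower (8.2% and 7.64%). At an unadjusted p under 0.05, limma also found 0 members lower in parental cells, with #1 and with #2. The shares of all probe sets include dim ones, whereas 40 of the 41 members lay above the array median in every array. Here and below, these shares were not matched for brightness.

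The 4 kinds of cells share no arrays, and 26 members passed higher in all of them, against 5.86% of all probe sets, while 35 did so in at least 1 (21.2%). The difference was above 0 in all 4 for 37 members, and for 21.8% of all probe sets. The median member differed by 0.28 in parental cells, 0.23 in NTC cells, 0.41 with #1 and 0.29 with #2, where the median of all probe sets was -0.03, 0.03, -0.03 and -0.01. In parental cells the 3 HRG arrays of a member all exceeded its 3 vehicle arrays for 30 members, against 17.7% of all probe sets. The same held for 32 members in NTC cells (23.9%), 37 with #1 (20%) and 33 with #2 (13.5%). The opposite order held for 0, 1, 0 and 0 members in parental, NTC, #1 and #2 cells, against 23.2%, 23.5%, 19.6% and 13.7% of all probe sets. Few members crossed a fold change of 1.5 as well as the adjusted p: 5 in parental cells (2.86% of all probe sets higher), 3 in NTC cells (2.64%), 7 with #1 (2.52%) and 2 with #2 (1.07%). By that rule 0 members were lower in any of them, against 2.41%, 3.37%, 1.15% and 0.656% of all probe sets. The members that were higher by that rule at least once were RRS1, RRP12, LYAR, DDX21, NOP16, WDR43, PNO1 and NOB1. NOB1 was so with #1 alone and WDR43 in parental cells alone, and in each case the fold change equalled 1.5 after rounding.

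**Figure D1:**
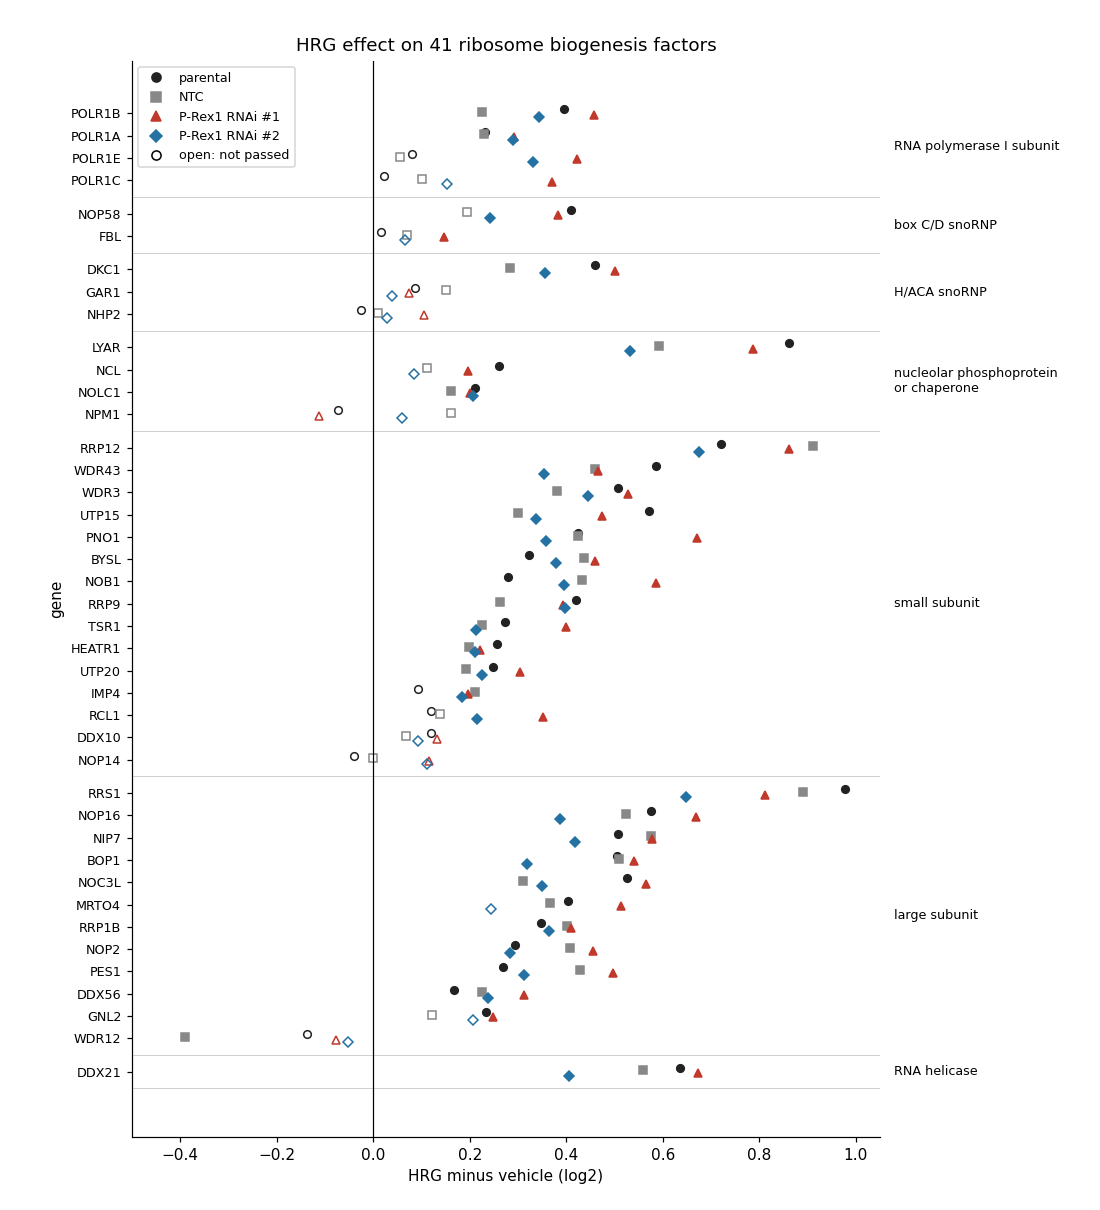
HRG effect (log2, HRG minus vehicle, mean of 3 arrays each) on the 41 measured members, grouped by role and ordered by the mean of parental and NTC cells. Black circles are parental, grey squares NTC, red triangles P-Rex1 RNAi #1 and blue diamonds #2, filled where the adjusted p was under 0.05. Most symbols lie right of 0 in all 4 kinds of cells, WDR12 lies left of 0 in all 4, and RRS1 reached the highest single value, 0.98 in parental cells.

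The promoters of these genes were searched for CACGTG, the palindromic E-box that proteins of the MYC and MAX family can bind. RefSeq promoters (GRCh38.p14, 250 bases before to 50 after each start) were given for 37 of the 45 members. BOP1, DDX18, NOLC1, NOP58, POLR1E, RRP12, RRP1B and RRS1 had no entry. CACGTG was present in 20 of the members' 45 windows (44.4%), against 7.26% of all 35116 windows and 8.34% of protein-coding windows. By gene it was in 19 of the 37 (51.4%), against 8.77% of all genes with a window and 10.9% of protein-coding ones. The windows of 88 further biogenesis genes listed for comparison held it in 26.7%, those of RNA polymerase III genes in 26.1%, and those of ribosomal protein genes in 5.13%. GC content differed little, with a median of 64% in the members' windows, 58.7% in all windows and 62.3% in protein-coding ones. The related E-box CACGCG was searched on both strands together with the variants CATGTG as well as CATGCG, and 1 or more of them were in 35.6% of the members' windows and 26.6% of all. Of the 21 CACGTG matches in members, 18 lay within 50 bases of the start and 15 lay after it. Positions of the matches in all windows were not counted, so this may hold for promoters in general. A few 30-base windows around the match are shown 5′ to 3′ on the gene's strand with CACGTG in capitals, for 5 members with a large HRG effect and for FBL, which carries the same letters and hardly changed. They cover LYAR at chr4:4290068-4290097 (minus strand), DDX21 at chr10:68956604-68956633 (plus), WDR43 at chr2:28894658-28894687 (plus), NOC3L at chr10:94362903-94362932 (minus), PNO1 at chr2:68157885-68157914 (plus) and FBL at chr19:39846356-39846385 (minus).
LYAR: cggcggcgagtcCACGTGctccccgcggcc
DDX21: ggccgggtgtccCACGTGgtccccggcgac
WDR43: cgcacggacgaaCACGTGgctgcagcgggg
NOC3L: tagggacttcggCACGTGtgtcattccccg
PNO1: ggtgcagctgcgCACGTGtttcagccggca
FBL: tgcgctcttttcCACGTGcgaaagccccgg

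Members with and without this motif passed in like numbers. Of 17 measured members with CACGTG, 12 passed higher in parental cells, and so did 12 of 17 without it, with median differences of 0.29 and 0.26. The medians were 0.31 with and 0.23 without it in NTC cells, 0.46 and 0.37 with #1, and 0.28 and 0.24 with #2. These are descriptions of small sets with no test. MYC itself did not pass in any of the 4 kinds of cells, with differences of -0.14 (SE 0.09, adjusted p = 0.305) in parental, -0.00 in NTC, 0.12 with #1 and 0.10 with #2.

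Among the subunits of RNA polymerase I, the enzyme that makes the ribosomal RNA precursor, HRG raised the catalytic subunits in all 4 kinds of cells. POLR1A, the largest subunit, rose by 0.23, 0.23, 0.29 and 0.29 in parental, NTC, #1 and #2 cells, and POLR1B, its partner in the active site, rose by 0.40, 0.23, 0.46 and 0.34. POLR1C, an assembly subunit shared with RNA polymerase III, differed by 0.02 and 0.10 in the control cells without passing, passed at 0.37 with #1, and stood at 0.15 with #2. The difference between its effects in silenced and control cells did not pass with either duplex. POLR1E, a subunit of the polymerase I-specific subcomplex, passed under both P-Rex1 duplexes and in neither control, and is described with silencing.

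The small nucleolar RNP proteins moved unequally. DKC1, the pseudouridine synthase of the H/ACA RNPs, rose by 0.46, 0.28, 0.50 and 0.36 in parental, NTC, #1 and #2 cells. Its partners GAR1 and NHP2 passed in none of the 4, with differences between -0.03 and 0.15. NHP2 has 2 single-symbol probe sets, and neither passed in any of the 4. Of the box C/D proteins, the core protein NOP58 rose by 0.41 in parental cells, 0.38 with #1 and 0.24 with #2, and stood at 0.20 in NTC cells. The methyltransferase FBL passed with #1 alone, at 0.15, a call that was lost without any of 5 of the 6 arrays of that comparison, and its differences elsewhere were 0.02, 0.07 and 0.07.

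Of the 4 nucleolar phosphoproteins and chaperones, LYAR stood above the others. LYAR, a nucleolar zinc finger protein that takes part in processing of the ribosomal RNA precursor, read 7.48, 7.32 and 7.07 in parental vehicle arrays and 8.18, 8.14 and 8.13 with HRG. NTC arrays of LYAR read 7.36, 7.16 and 7.47 with vehicle and 7.87, 7.89 and 8.0 with HRG. The HRG arrays lay above all vehicle arrays in both controls, with differences of 0.86 (SE 0.13, adjusted p = 2.57e-05) and 0.59 (adjusted p = 0.00128). With duplex #1, LYAR went from 7.34, 6.89 and 7.50 to 7.96, 8.04 and 8.09, where the lowest vehicle array is replicate 2, one of the 4 arrays lowest on the second principal component. With duplex #2, LYAR went from 7.67, 7.39 and 7.52 to 8.29, 8.11 and 7.77, a difference of 0.53 that fell to 0.42 (adjusted p = 0.0531) without the HRG array replicate 1. NOLC1, a chaperone of small nucleolar RNPs, rose by 0.21, 0.16, 0.20 and 0.21 in parental, NTC, #1 and #2 cells. NCL (nucleolin) rose by 0.26 in parental cells and 0.20 with #1, and stood at 0.11 in NTC and 0.08 with #2. NPM1, the histone chaperone nucleophosmin, differed by between -0.11 and 0.16 and passed in none, but its dim probe set leaves this gene poorly measured.

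The factors of the small subunit formed the largest group, and 11 of 15 passed higher in parental cells, 12 in NTC cells, 13 with #1 and 13 with #2. Of all probe sets, 13.5%, 13.6%, 14.9% and 8.2% passed higher in these cells. RRP12, which takes part in the export of pre-ribosomal subunits, had the largest change. RRP12 read 8.36, 8.47 and 8.33 in parental vehicle arrays and 9.05, 9.09 and 9.19 with HRG. NTC arrays of RRP12 read 8.29, 8.27 and 8.30 with vehicle and 9.08, 9.19 and 9.32 with HRG. Under duplex #1, RRP12 went from 8.29, 8.35 and 8.23 to 9.06, 9.18 and 9.21, and under #2 from 8.38, 8.25 and 8.48 to 9.07, 8.93 and 9.14. Groups did not overlap in any of the 4, and the differences were 0.72 (SE 0.07, adjusted p = 5.95e-08), 0.91, 0.86 and 0.68.

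Several components of the early small subunit processome, the particle that forms on the nascent precursor, rose with HRG. WDR43 read 9.52, 9.53 and 9.27 with vehicle and 9.88, 10.18 and 10.01 with HRG in parental cells, and 9.48, 9.55 and 9.41 against 9.94, 10.02 and 9.86 in NTC cells. Under duplex #1, WDR43 went from 9.63, 9.52 and 9.51 to 10.03, 10.14 and 9.88, and under #2 from 9.72, 9.60 and 9.45 to 10.01, 10.03 and 9.79. WDR43 differed by 0.58 (adjusted p = 2.95e-05), 0.46, 0.47 and 0.35, with no overlap in any of the 4, although the call with #2 was lost without its vehicle array replicate 3 (0.28, adjusted p = 0.0662). WDR3, another repeat protein of the processome, read 7.45, 7.38 and 7.42 with vehicle and 7.89, 7.87 and 8.01 with HRG in parental cells, and 7.52, 7.42 and 7.42 against 7.84, 7.80 and 7.85 in NTC cells. Under duplex #1, WDR3 went from 7.56, 7.21 and 7.47 to 8.0, 7.96 and 7.86, and under #2 from 7.57, 7.41 and 7.43 to 8.05, 7.91 and 7.78. All 4 differences of WDR3 passed, at 0.51 (adjusted p = 2.64e-05), 0.38, 0.53 and 0.44. UTP15, which also supports transcription of the precursor, read 9.02, 8.97 and 8.81 with vehicle and 9.54, 9.60 and 9.38 with HRG in parental cells, and 9.12, 9.10 and 9.01 against 9.46, 9.41 and 9.25 in NTC cells. Under duplex #1, UTP15 went from 9.03, 8.86 and 8.87 to 9.44, 9.42 and 9.32, and under #2 from 9.20, 9.08 and 9.07 to 9.53, 9.57 and 9.26. Its differences were 0.57 (adjusted p = 1.10e-05), 0.30, 0.47 and 0.34. The NTC call was lost with arrays centred on their medians (0.25, adjusted p = 0.0510). Also in the processome, RRP9, UTP20 and HEATR1 passed in all 4 at between 0.19 and 0.42, and IMP4 in 3 of them.

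Late small subunit factors rose too. PNO1, a partner of the endonuclease that trims the small subunit RNA, read 8.40, 8.41 and 8.29 with vehicle and 8.84, 8.68 and 8.86 with HRG in parental cells, and 8.37, 8.53 and 8.41 against 8.84, 8.87 and 8.88 in NTC cells. Under duplex #1, PNO1 went from 8.41, 8.15 and 8.23 to 8.96, 8.98 and 8.87, and under #2 from 8.63, 8.65 and 8.57 to 9.06, 9.0 and 8.88. The differences of PNO1 were 0.42 (adjusted p = 4.42e-05), 0.43, 0.67 and 0.36. NOB1, that endonuclease, rose by 0.28, 0.43, 0.58 and 0.40 in parental, NTC, #1 and #2 cells. BYSL, a scaffold of the late precursor, rose by 0.32, 0.44, 0.46 and 0.38, and TSR1 by 0.27, 0.23, 0.40 and 0.21. The remaining small subunit factors, which are not late ones, rose less evenly. RCL1 passed under both P-Rex1 duplexes, at 0.35 and 0.21, and in neither control, at 0.12 and 0.14. The difference between these effects did not pass for RCL1 with either duplex (adjusted p = 0.164 and 0.718). NOP14 and the helicase DDX10 passed in none of the 4, at between -0.04 and 0.13.

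For the large subunit, 11 of 12 factors passed higher in parental cells, 10 in NTC cells, 11 with #1 and 9 with #2. The shares of all probe sets higher were 13.5%, 13.6%, 14.9% and 8.2%. RRS1, which brings the 5S particle into the large subunit precursor, gave the largest HRG effect of any member in parental cells, while RRP12 exceeded it in the other three. RRS1 read 9.81, 9.96 and 9.64 in parental vehicle arrays and 10.59, 10.90 and 10.87 with HRG. NTC arrays of RRS1 read 9.54, 9.93 and 9.66 with vehicle and 10.52, 10.67 and 10.61 with HRG. Under duplex #1, RRS1 went from 9.89, 9.78 and 9.83 to 10.51, 10.75 and 10.68, and under #2 from 10.04, 9.94 and 9.71 to 10.60, 10.59 and 10.44. Every HRG array lay above every vehicle array, and the differences were 0.98 (1.97-fold, SE 0.10, adjusted p = 1.92e-07), 0.89, 0.81 and 0.65.

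NOP16 and NIP7, both parts of the nucleolar large subunit precursor, followed. NOP16 read 6.83, 6.93 and 6.75 with vehicle and 7.38, 7.37 and 7.50 with HRG in parental cells, and 6.86, 7.03 and 6.99 against 7.39, 7.55 and 7.51 in NTC cells. Under duplex #1, NOP16 went from 6.89, 6.91 and 6.97 to 7.55, 7.55 and 7.68, and under #2 from 6.99, 7.20 and 7.22 to 7.63, 7.50 and 7.44. NOP16 differed by 0.58 (adjusted p = 2.05e-06), 0.52, 0.67 and 0.39, with no overlap of HRG and vehicle arrays. NIP7 read 10.25, 10.28 and 10.32 with vehicle and 10.90, 10.78 and 10.70 with HRG in parental cells, and 10.24, 10.32 and 10.27 against 10.82, 10.87 and 10.86 in NTC cells. Under duplex #1, NIP7 went from 10.35, 10.24 and 10.18 to 10.77, 10.82 and 10.92, and under #2 from 10.27, 10.33 and 10.28 to 10.68, 10.75 and 10.71. NIP7 varied little within groups and differed by 0.51 (adjusted p = 4.37e-07), 0.58, 0.58 and 0.42. NOC3L, a nucleolar complex protein, read 8.21, 8.10 and 7.95 with vehicle and 8.72, 8.53 and 8.59 with HRG in parental cells, and 8.21, 8.14 and 8.16 against 8.55, 8.44 and 8.44 in NTC cells. Under duplex #1, NOC3L went from 8.10, 7.87 and 8.13 to 8.56, 8.63 and 8.62, and under #2 from 8.33, 8.24 and 8.14 to 8.74, 8.60 and 8.41. NOC3L differed by 0.53 (adjusted p = 4.02e-05), 0.31, 0.57 and 0.35, and its NTC call was lost with arrays centred on their medians (0.26, adjusted p = 0.0542).

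Other large subunit factors rose as well. NOP2, a ribosomal RNA methyltransferase, rose by 0.29, 0.41, 0.46 and 0.28 in parental, NTC, #1 and #2 cells. RRP1B rose by 0.35, 0.40, 0.41 and 0.36, and the helicase DDX56 by 0.17, 0.22, 0.31 and 0.24. MRTO4, which holds the place of the ribosomal stalk, rose by 0.40, 0.37 and 0.51 in parental, NTC and #1 cells, and stood at 0.24 with #2. The GTPase GNL2 passed in parental cells (0.23) and with #1 (0.25), and stood at 0.12 in NTC and 0.21 with #2.

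DDX21, an RNA helicase that links RNA polymerase I and II transcription with processing, rose in all 4 kinds of cells. It read 9.93, 9.98 and 9.96 in parental vehicle arrays and 10.48, 10.59 and 10.71 with HRG. NTC arrays of DDX21 read 10.03, 10.07 and 10.02 with vehicle and 10.52, 10.62 and 10.66 with HRG. With duplex #1, DDX21 went from 9.93, 9.96 and 10.02 to 10.51, 10.75 and 10.67, and with #2 from 10.21, 10.15 and 10.09 to 10.52, 10.64 and 10.51. HRG and vehicle arrays did not overlap, and the differences were 0.64 (SE 0.07, adjusted p = 1.06e-07), 0.56, 0.67 and 0.41.

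**Figure D2:**
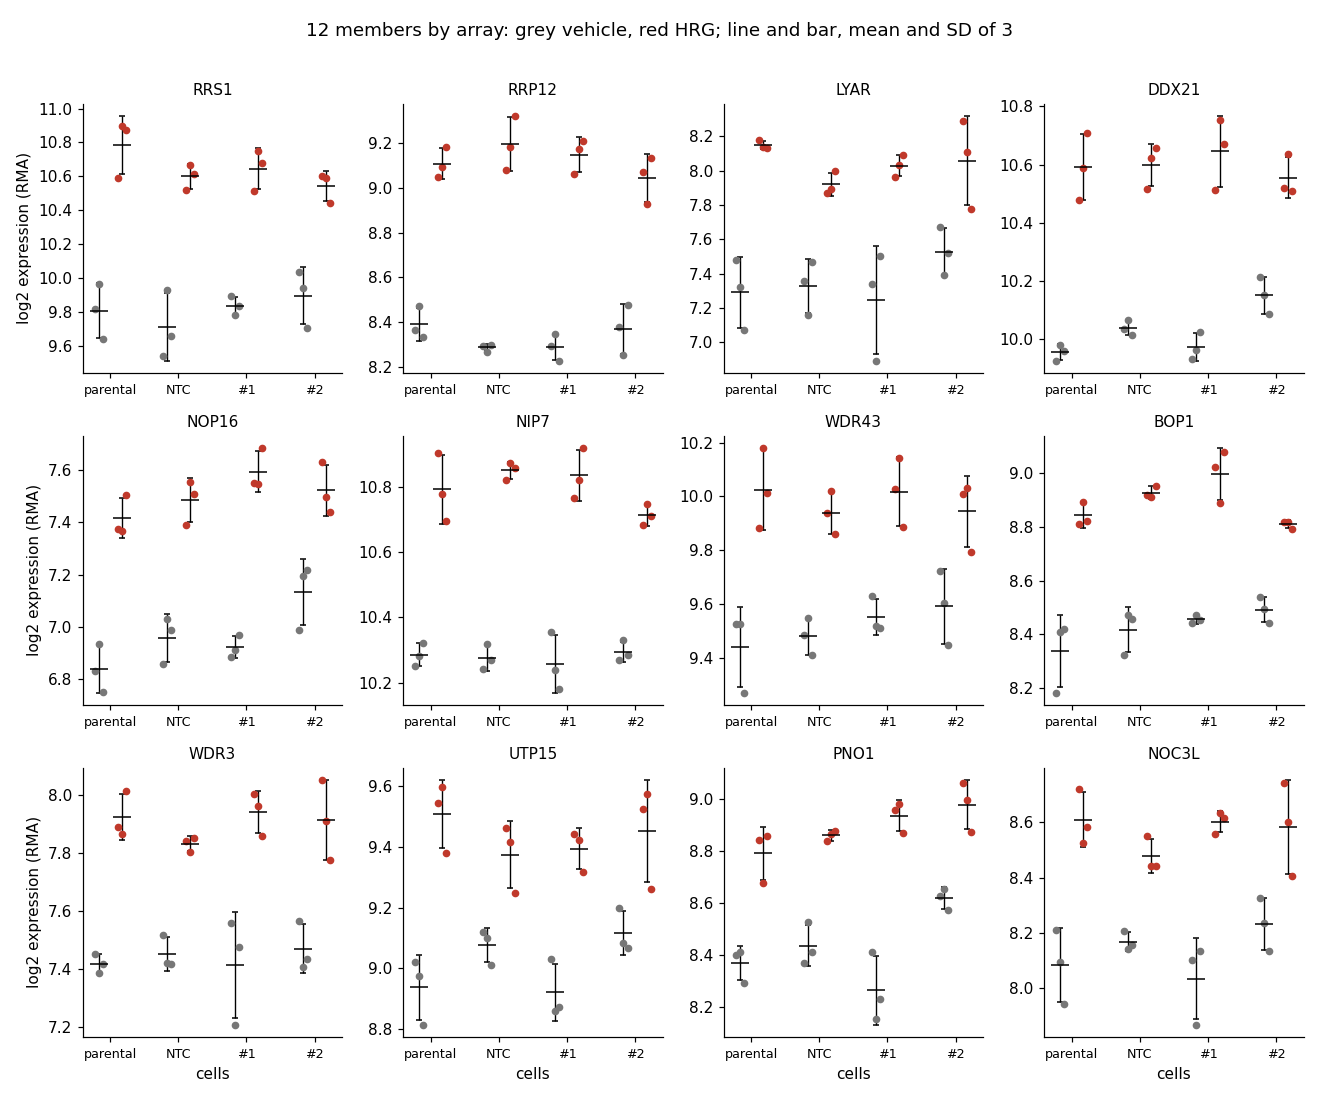
Log2 expression of the 12 members with the largest HRG effect, averaged over parental and NTC cells, among those that passed in both. Points are arrays (grey vehicle, red HRG), horizontal lines group means and bars the SD of 3 arrays, for parental, NTC, #1 and #2 cells, with an axis of its own per gene that does not start at 0. In each panel the 3 red points lie above the 3 grey points in all 4 kinds of cells.

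PES1, BOP1 and WDR12 form the PeBoW complex, which is needed to process the large subunit RNA, and HRG moved its members apart. PES1 read 7.68, 7.83 and 7.70 with vehicle and 8.0, 8.01 and 8.0 with HRG in parental cells, and 7.66, 7.72 and 7.62 against 8.04, 8.08 and 8.17 in NTC cells. Under duplex #1, PES1 went from 7.69, 7.55 and 7.64 to 8.14, 8.07 and 8.16, and under #2 from 7.62, 7.54 and 7.61 to 7.90, 7.88 and 7.92. PES1 rose by 0.27 (adjusted p = 3.94e-04), 0.43, 0.50 and 0.31. BOP1 read 8.18, 8.41 and 8.42 with vehicle and 8.81, 8.89 and 8.82 with HRG in parental cells, and 8.32, 8.47 and 8.46 against 8.92, 8.91 and 8.95 in NTC cells. Under duplex #1, BOP1 went from 8.44, 8.47 and 8.45 to 9.02, 8.89 and 9.08, and under #2 from 8.54, 8.49 and 8.44 to 8.82, 8.82 and 8.79. BOP1 rose by 0.50 (adjusted p = 1.37e-06), 0.51, 0.54 and 0.32, and its other single-symbol probe set also passed in parental cells, at 0.54. WDR12 was the one member that passed lower in any of the 4. It read 9.07, 9.07 and 9.15 in NTC vehicle arrays and 8.81, 8.67 and 8.64 with HRG, a fall that left no overlap (-0.39, SE 0.08, adjusted p = 7.87e-04). In parental cells WDR12 read 9.11, 9.02 and 9.09 with vehicle and 9.04, 8.87 and 8.89 with HRG, which overlapped and did not pass (-0.14, adjusted p = 0.247). With duplex #1, WDR12 read 9.20, 8.99 and 9.31 with vehicle and 9.12, 9.15 and 8.99 with HRG, and with #2 it read 9.36, 9.19 and 9.07 and 9.18, 9.25 and 9.04. Those groups overlapped too, at -0.08 and -0.05. The HRG effect on WDR12 did not differ past the threshold between NTC and parental cells (-0.25, adjusted p = 0.603), and over both controls together it was -0.26 (adjusted p = 7.93e-04).

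**Figure D3:**
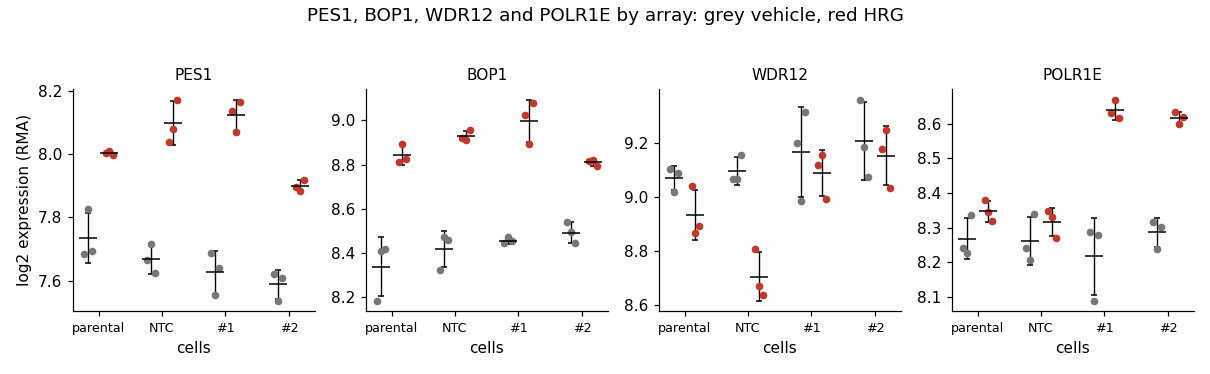
Log2 expression of the PeBoW genes PES1, BOP1 and WDR12 and of the RNA polymerase I subunit POLR1E by array (grey vehicle, red HRG, line and bar the mean and SD of 3 arrays) in parental, NTC, #1 and #2 cells, with an axis of its own per gene that does not start at 0. The HRG arrays of PES1 and BOP1 lie above vehicle in all 4, those of WDR12 lie below vehicle in NTC cells, and those of POLR1E reach 8.60 or more under both P-Rex1 duplexes and at most 8.38 in the controls.

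Other genes of the pathway were listed by role rather than by their change, and their counts in parental cells stand against the 13.5% of all probe sets higher and 17.3% lower. Of 85 other measured biogenesis factors, 43 passed higher (50.6%) and 2 lower (2.35%) in parental cells, with a median of 0.20. The largest changes were in RRP15 (0.83), MAK16 (0.81) and the export adaptor NMD3 (0.78), all of the large subunit, and in UTP3 (0.72) of the small subunit processome. NOP53 (-0.48) and DDX52 (-0.19) fell. In NTC, #1 and #2 cells, 40, 59 and 37 of the 85 passed higher and 3, 1 and 1 lower. Of all probe sets, 13.6%, 14.9% and 8.2% passed higher there and 17.6%, 12.4% and 7.64% lower. Of 11 further genes of RNA polymerase I and its factors, 6 passed higher and 0 lower, led by the promoter selectivity subunit TAF1A (0.98), followed by POLR1F (0.50), the termination factor TTF1 (0.41) and TAF1D (0.34). Of 20 genes of RNA polymerase III, which makes 5S and transfer RNA, 7 passed higher (35%) and 3 lower (15%). POLR3F (0.54) and GTF3C6 (0.52) rose, while the polymerase III repressor MAF1 (-0.45) and GTF3C2 (-0.42) fell.

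The ribosomal proteins themselves stayed near 0, with a median of 0.01 over 57 genes in parental cells, where 6 passed higher (10.5%) and 3 lower (5.26%). RPS24 (0.49), RPL23 (0.39) and RPL32 (0.37) rose and RPL27A (-0.50) fell, and 22 of the 79 listed had no single-symbol probe set. Their medians were 0.05, 0.05 and 0.01 in NTC, #1 and #2 cells. Of 13 genes of the MYC network, 2 passed higher (15.4%) and 4 lower (30.8%) in parental cells, so the higher share was near that of all probe sets. MXD3 (-0.59), MXI1 (-0.31) and MNT (-0.30), which antagonise MYC at E-boxes, fell, and MLXIP (0.34) rose. Among 6 measured small nucleolar RNAs encoded in introns of members, 3 passed higher in parental cells (50%), all of them in NCL: SNORA75 (0.59), SNORD20 (0.52) and SNORD82 (0.47). SNORD20 averaged 3.45 over the 24 arrays, below the 25% quantile of every array. SNORD82 averaged 5.27, below every array median, so both were dim. An array probe for such an RNA may also read the intron of its host, which was not tested.

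**Figure D4:**
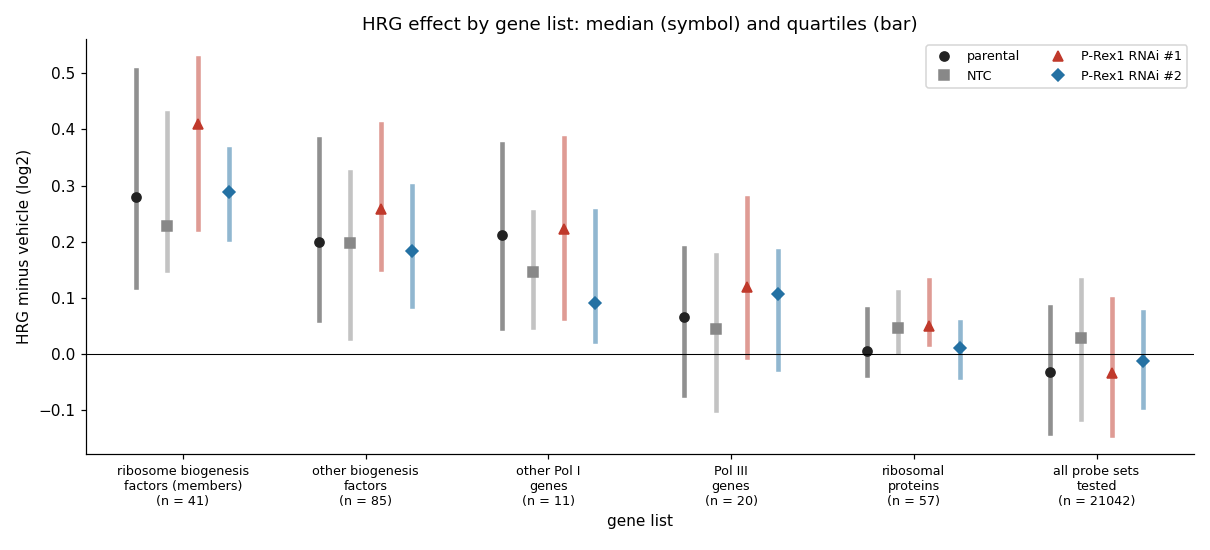
HRG effect (log2) by gene list, with the median (symbol) and the quartiles (bar) over genes, in parental (black), NTC (grey), #1 (red) and #2 (blue) cells. Among the sets drawn, the members have the highest medians (0.28, 0.23, 0.41 and 0.29). The 6 small nucleolar RNAs, not drawn, had medians of 0.475, 0.296, 0.274 and 0.135 in parental, NTC, #1 and #2 cells. Ribosomal proteins stay near 0, and all probe sets lie around 0; bars show the spread over genes, not an error over arrays.

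The HRG effect on the members persisted when P-Rex1 was silenced. Against the mean effect in parental and NTC cells, 1 member passed higher and 0 lower with #1 (0.718% and 0.442% of all probe sets), and 1 higher and 0 lower with #2 (2.1% and 1.85%). At an unadjusted p under 0.05, limma gave 6 higher and 0 lower with #1, and 1 higher and 3 lower with #2. Both comparisons use the same control arrays. The difference in effect ran from -0.16 (NPM1) to 0.35 (POLR1E) with #1 and from -0.28 (RRS1) to 0.26 (POLR1E) with #2. The 95% confidence interval of a member's difference reached a median of 0.17 to either side, so changes of that size could have gone undetected. For RRS1 the interval was -0.39 to 0.14 with #1 and -0.55 to -0.02 with #2 (adjusted p = 0.612 and 0.273). Between NTC and parental cells, and between #2 and #1, 0 members passed in either direction, with 1 higher and 2 lower and with 0 higher and 7 lower at an unadjusted p under 0.05. Of all probe sets, 0% passed between NTC and parental cells, and 0% higher and 0.0665% lower between #2 and #1.

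Relative to the controls, a line through 0 over the 41 members had a slope of 1.14 with #1 and 0.805 with #2, where the slope over all probe sets was 0.737 and 0.564. Between NTC and parental cells the slope was 0.873 over the members and 0.911 over all probe sets. Across the members, the effects in silenced cells and in the controls correlated with r = 0.907 (rho = 0.919) for #1 and r = 0.918 (rho = 0.893) for #2. These describe genes within the same arrays, which are not replicates, and the difference between members and all probe sets in slope was not tested. With #1 the effect was above that of the controls in 36 of 41 members, and with #2 in 18, against 51.8% and 50.5% of all probe sets. Without the 4 arrays lowest on the second principal component, the counts were 32 and 25 and the slopes over the members 1.13 and 0.899. With replicate 1 of #2 with HRG left out in place of replicate 3, the count for #2 was 14 and the slope 0.782, so both rest on which of these arrays is kept.

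**Figure D5:**
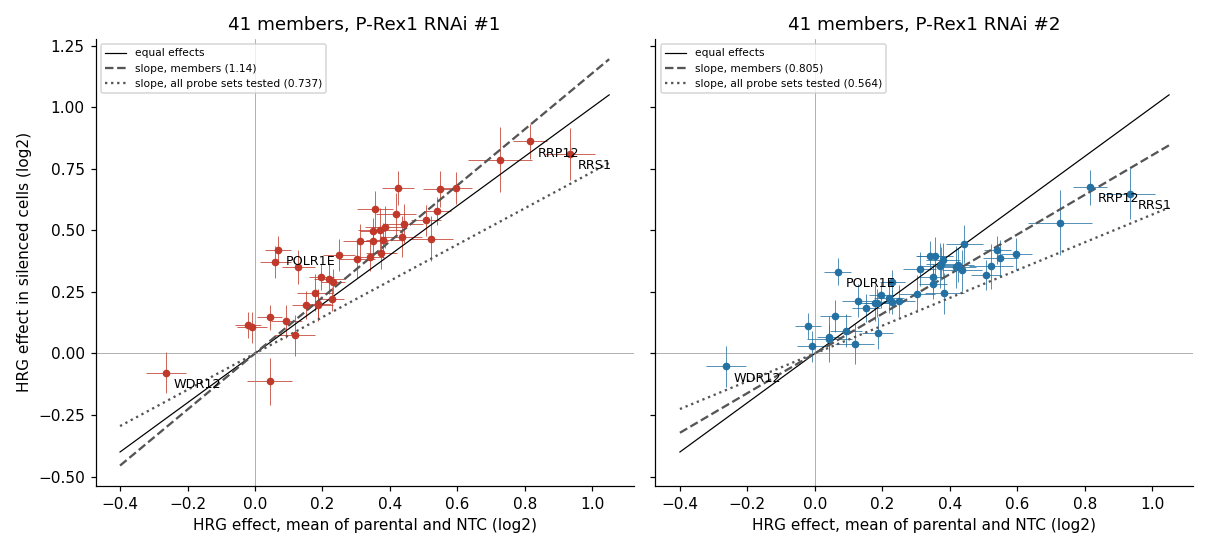
HRG effect (log2) on each of the 41 members in cells with P-Rex1 RNAi #1 (left) or #2 (right) against the mean effect in parental and NTC cells, with bars of 1 SE. The solid line marks equal effects, the dashed line the slope through 0 over the members (1.14 and 0.805) and the dotted line that over all probe sets (0.737 and 0.564). POLR1E lies above the solid line in both panels.

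POLR1E was the member whose HRG effect differed between silenced and control cells. In parental cells it read 8.24, 8.23 and 8.34 with vehicle and 8.38, 8.34 and 8.32 with HRG, and in NTC cells 8.24, 8.21 and 8.34 against 8.35, 8.33 and 8.27. With duplex #1, POLR1E went from 8.29, 8.09 and 8.28 to 8.63, 8.67 and 8.62, and with #2 from 8.32, 8.24 and 8.30 to 8.63, 8.60 and 8.62. The 6 silenced HRG arrays lay above the other 18 arrays. That order was not counted over all probe sets, so it is description only. The HRG effect on POLR1E was 0.08 in parental, 0.06 in NTC, 0.42 with #1 (adjusted p = 5.21e-06) and 0.33 with #2 (adjusted p = 1.80e-04). The excess over the controls was 0.35 with #1 (SE 0.07, adjusted p = 0.0157) and 0.26 with #2 (SE 0.07, adjusted p = 0.0284). With #1 the call was lost without vehicle replicate 2 (0.29, adjusted p = 0.0730), one of the 4 arrays lowest on the second principal component, and without HRG replicate 2 (0.34, adjusted p = 0.0625). With #2 it was lost without any 1 of 6 arrays: parental HRG 3, NTC vehicle 3, vehicle 2 and 3 of #2, and HRG 1 and 3 of #2, with values between 0.24 and 0.27 and adjusted p between 0.0504 and 0.102. It was also lost with same-numbered vehicle and HRG arrays as pairs within each kind of cells (0.26, adjusted p = 0.0637) and with arrays centred on their medians (0.29, adjusted p = 0.0635), while the call with #1 was kept under both.

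Without HRG, few members differed past the threshold between silenced and control cells, although with #2 most lay slightly higher. In vehicle arrays 0 members passed in either direction with #1 against the mean of parental and NTC cells (0.0428% of all probe sets higher and 0.623% lower), with 1 higher and 2 lower at an unadjusted p under 0.05. With #2, 3 passed higher and 0 lower (0.756% and 2.59%): PNO1 at 0.22 (adjusted p = 0.0454), NOP2 at 0.20 (adjusted p = 0.037) and NOP16 at 0.23 (adjusted p = 0.0422). NOP2 read 7.66, 7.69 and 7.71 with #2, against 7.44, 7.57 and 7.55 in parental and 7.37, 7.56 and 7.44 in NTC vehicle arrays. These 3 calls rested on single arrays, and the count ranged from 0 to 3 as each array was left out. At an unadjusted p under 0.05, limma gave 12 members higher and 1 lower with #2. The median member lay 0.10 higher, and 36 of 41 lay above 0, against 54.3% of all probe sets. So did 53 of 57 ribosomal protein genes. The #2 vehicle arrays are also the baseline of the #2 HRG effects. Between NTC and parental vehicle arrays 0 members passed (0.00475% of all probe sets in each direction), and 0 did so at an unadjusted p under 0.05.

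With HRG present, levels were compared between silenced and control cells, again against the same 6 control arrays. With #1, 3 members passed higher and 0 lower (3.39% and 1.68% of all probe sets), and with #2, 3 passed higher and 1 lower (8.33% and 6.71%). These few calls were not tested against the shares of all probe sets. At an unadjusted p under 0.05, limma gave 10 higher and 0 lower with #1, and 9 higher and 2 lower with #2. The difference was above 0 for 34 of 41 members with #1 and for 31 with #2, against 51.6% and 53.1% of all probe sets. POLR1E was higher by 0.31 with #1 and 0.29 with #2. WDR12 was higher by 0.27 and 0.33. POLR1C, which read 8.50, 8.18 and 8.30 in parental and 8.27, 8.42 and 8.30 in NTC HRG arrays, read 8.59, 8.58 and 8.48 with #1 and 8.55, 8.55 and 8.52 with #2, higher by 0.22 and 0.21. PES1 was lower with #2 at -0.15 (adjusted p = 0.0277), and stood at 0.07 with #1. The dimmer probe set of NHP2, not counted here, passed higher with #2 at 0.19 (adjusted p = 0.0323). The brighter one stood at 0.15 (adjusted p = 0.0654). The calls of WDR12 with #1 and of PES1 with #2 were lost without NTC HRG 3, one of the 4 arrays lowest on the second principal component, among others.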

How the data were processed

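RNA of T-47D cells was hybridised to 24 arrays, 3 biological replicates in each of 8 groups taken from the labels. The authors normalized the arrays by RMA in simpleaffy (version not given in the sources used here), and the deposited values are log2 expression values of 28536 probe sets. The platform annotation gave 1 symbol to 19292 probe sets, several to 1750 and none to 7494. The 21042 with a symbol were fitted with limma 3.58.1 (R 4.3.3, statmod 1.5.0), a mean per group over all 24 arrays, with Benjamini-Hochberg adjustment. A gene's probe set is the brightest with its symbol alone. The fit was tested on simulated data. The Rank Products test of the study resamples over genes and was not rerun.

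The members and lists were chosen with earlier results of these data known, so nothing here is independent support for a pattern seen before. Arrays are given in full for the 12 members with the largest mean HRG effect in the controls among those that passed in both, for those that passed with silencing, and for any that passed against the median. Other lists give up to 4 genes with the largest change in parental cells. The comparisons of silenced with control cells under HRG, the slopes without single arrays, the pairs within each kind of cells and the exchange of 1 left-out array were added after seeing the data. Same-numbered HRG and vehicle arrays deviated together (r over 0.1 in every pair) in parental and #2 cells, and the labels do not say that a number marks a shared culture. Alternatives comprised a replicate block, filters on dim or unnamed probe sets, other variance models, thresholds, scaling and probe set rules, and leaving out arrays. Promoters came from RefSeq (GRCh38.p14). Array medians lay between 6.04 and 6.18, arrays carry no counts, and their number limits the precision. Plots were drawn with matplotlib 3.10.9 (Python 3.11.15).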

Additional observations from a re-analysis of the deposited data

Results flagged for a closer look

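POLR1E was the member for which a test of the difference between cell groups passed: its HRG effect exceeded that of the control cells by 0.35 with P-Rex1 RNAi #1 and by 0.26 with #2 (limma interaction, adjusted p = 0.0157 and 0.0284). Both values use the same control arrays. With #2, 1 call among 41 members is near the share of all probe sets higher (2.1%), and with #1 that share was 0.718%. As each array was left out, the count of such members ran from 0 to 2 with #1 and 0 to 1 with #2.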

How the results depend on the processing

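The counts of members raised by HRG stayed within 1.5 times of the reported count under each alternative other than the fold threshold, lowest in NTC cells with arrays centred, while counts after silencing rested on few arrays. Same-numbered HRG and vehicle arrays had correlations of deviations over 0.1 in 10 of 12 pairs (range -0.053 to 0.388), in all 3 pairs of parental and of #2 cells but in 2 of 3 of NTC and of #1 cells. A fit with these pairs as a replicate block within each kind of cells gave 30, 29, 34 and 32 members higher in parental, NTC, #1 and #2 cells, and 0 instead of 1 with a larger HRG effect under #2. A fit with the replicate number as a block gave 2 instead of 1 member with a larger HRG effect under #1 and changed no other count by over 1.5 times. That count was also 2 without the dimmest 25% of probe sets, with a trended and robust variance and with arrays centred on their medians, and 0 without the 4 arrays lowest on the second principal component. With arrays centred, 20 instead of 28 members passed higher in NTC cells, 0 had a larger HRG effect under #2, 0 were higher under #2 with vehicle, 6 were higher under #1 with HRG and 0 were lower under #2 with HRG. Requiring a fold over 1.5 gave 5 members higher in parental, 3 higher and 0 lower in NTC, 7 higher with #1 and 2 with #2, and 0 in every comparison with silencing. Under #2 with vehicle the count was 0 with all probe sets tested, 0 with the compared groups alone and 1 without the 4 arrays. Under #2 with HRG, 6 were higher without those arrays, and 0 were lower without them or with the compared groups alone. As each array was left out, the count raised by HRG ran from 28 to 30 in parental, 24 to 27 in NTC (1 lower throughout), 31 to 34 with #1 and 23 to 30 with #2. The larger HRG effects ran from 0 to 2 with #1 and 0 to 1 with #2, the vehicle count of #2 from 0 to 3, and with HRG the counts higher ran from 1 to 4 with #1 and 2 to 5 with #2, and lower from 0 to 1 with #2. With #2 HRG replicate 1 left out in place of replicate 3, 0 members had a larger HRG effect under #1 or #2, 1 was higher under #2 with vehicle and 0 were lower under #2 with HRG. Of 2220 values of single called members under alternatives, 2055 kept direction and call, 165 lost the call and 0 reversed. The causes of these changes were not tested. Precision is limited by 3 arrays a group, and dim probe sets such as that of NPM1 are compressed toward background.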
